A study of Mus musculus with 3 samples.

Results

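Among the stromal cells of the adult mouse lacrimal gland (LG), the gland that makes the watery part of tears, a small set of fibroblasts carried transcripts of *Pdgfrl* and *Fxyd6*. They were chosen cell by cell from unique molecular identifiers (UMIs, tags by which each captured RNA molecule is counted once). Called barcodes had to hold more than 500 UMIs, more than 200 genes and under 15% mitochondrial UMIs. A fibroblast had at least 4 UMIs over *Col1a1*, *Col1a2*, *Col3a1*, *Dcn* and *Lum*, and 0 of *Ptprc*, *Epcam*, *Pecam1* and *Cdh5*. It became a member of the set with at least 1 UMI over *Pdgfrl* and *Fxyd6*, here called the gate genes, and at most 1 UMI over the adventitial genes *Pi16*, *Dpp4* and *Ackr3*. This gave 84 members among 3042 gated fibroblasts and 19592 barcodes past the quality limits.

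The series holds 3 single-cell libraries of C57BL/6J mice, 1 from females and 2 from males, with 6 LGs of 3 animals aged 2 months pooled in each. The animals carried no transgene and received no treatment. Female cells were handled at another core facility and on another day than male cells, so sex, facility and day cannot be told apart and no test of sex was made. Pooling hides the single animals, and p-values below measure the spread between 3 libraries. Values given in a row of 3 run from the female library to male library 1 and then 2.

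Fibroblasts build and remodel the matrix around the secretory units, ducts and vessels of a gland. In many organs the adventitial kind, marked by *Pi16* and *Dpp4*, lies along vessels, while parenchymal kinds lie between the working units. *Pdgfrl* encodes a secreted protein that resembles a PDGF receptor but lacks its kinase, and *Fxyd6* encodes a small membrane protein of a family that tunes the sodium pump. The study named both, with *Mfap4*, *Cilp* and *Tnc*, for a fibroblast cluster of these same libraries, so the levels of these 5 genes are given as a description. *Mfap4*, *Cilp* and *Tnc* were part of the fits over all genes and stand in the counts of called genes below, where they support nothing.

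In the mm10 build, *Pdgfrl* (ENSMUSG00000031595) lies at chr8:40926212-40990785 and *Fxyd6* (ENSMUSG00000066705) at chr9:45370185-45396159, both on the plus strand. *Mfap4* (ENSMUSG00000042436) lies at chr11:61485431-61488900 and *Cilp* (ENSMUSG00000042254) at chr9:65265180-65280605, also on the plus strand, and *Tnc* (ENSMUSG00000028364) at chr4:63959785-64047015 on the minus strand. All 5 are protein-coding genes. Promoters of *Fxyd6*, *Cilp* and *Tnc* are shown because these genes were found in the same small group of cells. Each runs from 250 bases before to 50 bases after a RefSeq start (GRCm38.p6), at chr9:45369935-45370234 (plus), chr9:65264930-65265229 (plus) and chr4:64046966-64047265 (minus, 1 of 2 listed starts). Capitals mark matches to 4 short motifs searched on both strands. These were the TATA box with the letters TATAAA, the binding site of the AP-1 factors with the letters TGANTCA, that of the TEAD factors with the letters GGAATG, and the E-box with the letters CANCTG.
Fxyd6: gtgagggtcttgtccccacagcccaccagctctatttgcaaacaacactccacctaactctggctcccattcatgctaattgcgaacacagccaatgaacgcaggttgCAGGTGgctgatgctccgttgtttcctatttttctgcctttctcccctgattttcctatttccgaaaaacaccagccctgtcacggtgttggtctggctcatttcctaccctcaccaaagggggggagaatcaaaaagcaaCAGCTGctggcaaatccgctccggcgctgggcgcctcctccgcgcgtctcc
Cilp: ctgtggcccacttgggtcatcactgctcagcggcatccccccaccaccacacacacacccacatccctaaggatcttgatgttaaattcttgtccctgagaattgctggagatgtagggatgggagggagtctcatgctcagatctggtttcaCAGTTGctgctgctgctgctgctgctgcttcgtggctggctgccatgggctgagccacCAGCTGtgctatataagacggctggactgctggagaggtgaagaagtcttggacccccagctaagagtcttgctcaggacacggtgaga
Tnc: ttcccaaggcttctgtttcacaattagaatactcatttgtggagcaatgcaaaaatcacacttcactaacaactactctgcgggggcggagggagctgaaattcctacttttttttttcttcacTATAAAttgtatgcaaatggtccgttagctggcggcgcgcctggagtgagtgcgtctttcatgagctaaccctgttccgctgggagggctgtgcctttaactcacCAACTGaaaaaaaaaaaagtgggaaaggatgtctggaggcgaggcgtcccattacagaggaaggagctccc
*Fxyd6* and *Cilp* each held 2 E-box matches, and *Tnc* held 1, with 1 TATA box match. The E-box letters were present in 51.4% of 32851 promoters of this length, the TATA box letters in 13.6%, those of TEAD in 14.7% and those of AP-1 in 7.81%. Of the 12 genes with a promoter entry among the 15 named as higher in members below, 6 held the E-box letters, 1 the TATA box, 2 the TEAD and 0 the AP-1 letters. A match describes these letters only.

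Members numbered 62, 12 and 10. They made up 3.52% of the gated fibroblasts in the female library (exact 95% binomial interval 2.71 to 4.50%), 1.59% in male library 1 (0.824 to 2.76%) and 1.89% in male library 2 (0.912 to 3.46%). The mean was 2.34 ± 1.04% (SD, n = 3 libraries), and the 3 intervals overlapped, those of the female library and male library 1 by little. Members held a median of 3426, 1579 and 1404 UMIs, the female ones being the deepest. Fibroblasts with at least 1000 UMIs were also thinned to 1000 and gated again. This left out 1, 1 and 2 members and 61, 129 and 137 non-members outside the adventitial gate, so the set of cells differs. Members were then 39 of 1633, 9 of 604 and 4 of 321, or 2.39, 1.49 and 1.25%, with overlapping intervals. The intervals cover counting error only.

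**Figure D1:**
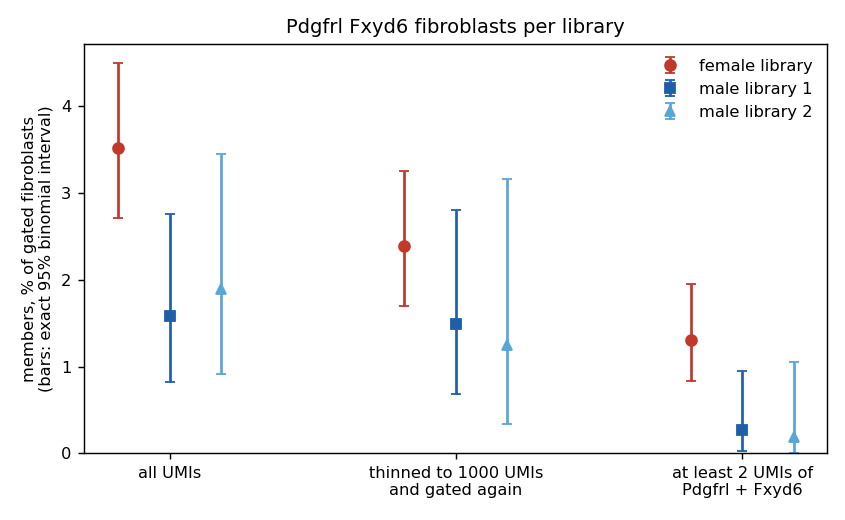
Members as a percentage of gated fibroblasts (vertical axis) in each library (females as circles, males 1 as squares, males 2 as triangles). Shares are given with all UMIs, after thinning cells of at least 1000 UMIs to 1000, and with at least 2 UMIs of the gate genes. Bars are exact 95% binomial intervals; the female library had 3.52, 2.39 and 1.31% and lay highest under each rule, with intervals that overlapped those of the male libraries in the thinned cells.

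Most members passed the gate by a single molecule. Exactly 1 gate UMI was found in 58 of the 84, 2 or more in 26 and 3 or more in 12, up to 9 in a cell. *Pdgfrl* alone was seen in 32 members, *Fxyd6* alone in 37 and both in 15. *Pdgfrl* had 65, 7 and 7 UMIs over the members of the 3 libraries and *Fxyd6* 64, 7 and 4. A further 33 fibroblasts (26, 5 and 2) had a gate UMI but 2 or more adventitial UMIs and were therefore not members.

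The gate transcripts were rare in leukocytes, epithelial cells and endothelial cells. A gate UMI was found in 1 of 1012, 0 of 74 and 0 of 55 leukocytes, in 7 of 1036, 0 of 603 and 0 of 482 epithelial cells, and in 7 of 665, 0 of 129 and 0 of 76 endothelial cells. Mural cells had 0 of 42, 0 of 18 and 2 of 29. In uncalled barcodes with more than 500 and up to 1000 UMIs, which hold mostly free RNA, a gate UMI was found in 6 of 29761, 1 of 23215 and 0 of 48322, and 0 of these barcodes reached the collagen limit of the fibroblast gate. Tear-product transcripts, the main free RNA, were 25.7, 40.2 and 60.4% of the UMIs of the median member and 24.5, 46.0 and 44.9% of the median non-member fibroblast outside the adventitial gate.

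*Mfap4*, a glycoprotein of elastic fibres, *Cilp*, a matrix protein first known from cartilage, and *Tnc*, the matricellular protein tenascin-C, were not used by the gate. Levels are given as CPM, the UMIs of a gene per 1000000 UMIs of the summed cells of a class in a library. *Mfap4* had 395, 1522 and 1136 CPM in members and 19.2, 24.5 and 28.6 CPM in the other non-adventitial fibroblasts, that is, those with 0 gate UMIs (1505, 706 and 464 cells). *Cilp* had 121, 451 and 189 CPM against 8.09, 8.15 and 7.88 CPM. *Tnc* had 359, 169 and 316 CPM against 4.65, 2.45 and 2.96 CPM. For all 3 genes the lowest member library lay above the highest comparison library. At this depth 1 UMI is worth 63.1 CPM in the members of male library 2, and the 169 CPM of *Tnc* in male library 1 are 3 UMIs in 2 cells.

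By cell, *Mfap4* was detected in 26 of 62, 8 of 12 and 7 of 10 members and in 52 of 1505, 13 of 706 and 13 of 464 other fibroblasts. In cells with at least 1000 UMIs, thinned to 1000, the shares were 29.5, 54.5 and 62.5% of members and 2.22, 1.39 and 3.06% of the others. In leukocytes, which should lack it, *Mfap4* was found in 1 of 1012, 0 of 74 and 0 of 55 cells, at median depths of 3533, 1770 and 1323 UMIs. At least 1 of *Mfap4*, *Cilp* and *Tnc* was present in 27 of 62, 9 of 12 and 9 of 10 members, and in 5.78, 2.83 and 3.88% of the others. Thus 39 of 84 members showed none of the 3, among them 35 of the 62 female ones.

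Levels also differed among members by their number of gate UMIs. Summed over the 3 libraries, the fibroblasts just outside the gate (0 gate UMIs), just inside (1 UMI) and further in (2 or more) had 21.4, 342 and 883 CPM of *Mfap4*, 4.03, 86.9 and 871 CPM of *Tnc*, and 8.07, 57.9 and 334 CPM of *Cilp*. *Igfbp2*, which encodes a binding protein for insulin-like growth factors, had 35.2, 104 and 1062 CPM over the libraries together, but the libraries did not run alike: 38.4, 13.9 and 1119 CPM in the female library, 13.0, 334 and 0 CPM in male library 1, and 46.3, 767 and 0 CPM in male library 2. Of its 89 UMIs at 2 or more gate UMIs, all female, 38 were in 1 cell. *Nbl1*, a secreted antagonist of bone morphogenetic proteins, had 52.9, 261 and 871 CPM. *Crabp1*, a retinoic acid binding protein of parenchymal fibroblasts, ran the other way, with 1274, 620 and 251 CPM. Of the 26 members with 2 or more gate UMIs, 23 came from the female library, and the 3 male ones had 0 UMIs of *Tnc* and *Igfbp2*, so the last step rests on female cells.

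**Figure D2:**
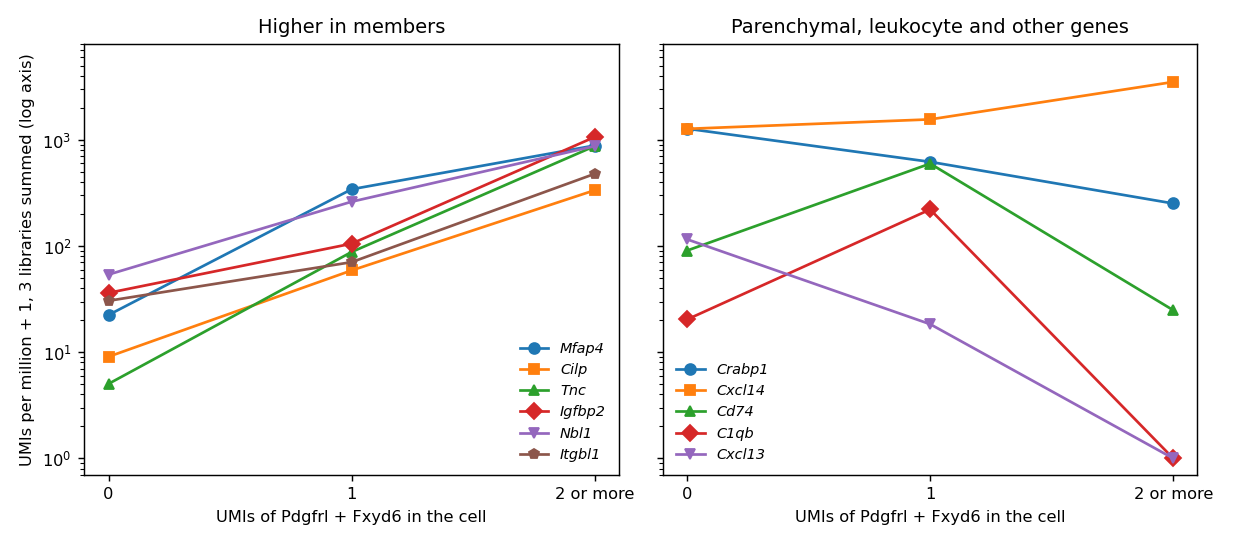
Summed level (CPM plus 1, log axis, 3 libraries together) of genes in fibroblasts with 0 (2675 cells), 1 (58 cells) or at least 2 (26 cells) UMIs of *Pdgfrl* and *Fxyd6*, each line a gene. In these pooled values *Mfap4*, *Tnc* and *Igfbp2* climb at each step, which for *Igfbp2* holds in no single library, *Crabp1* falls from 1274 to 251 CPM, and the leukocyte genes *Cd74* and *C1qb* stand high only at 1 UMI, with 596 and 220 CPM.

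To see whether members lie together without the gate, all 3042 gated fibroblasts were clustered with the 14 genes of the rule, tear-product, mitochondrial and ribosomal protein genes left out. Of 14 clusters, one of 84 cells led by *Mfap4*, *Tnc*, *Igfbp2*, *Cilp* and *Pla2g7* took 31 members (15, 8 and 8), and 16 of the 26 members with 2 or more gate UMIs. The gate genes, which had no part in the clustering, were found in 27 of its 37 female cells, 13 of 26 cells of male library 1 and 9 of 21 of male library 2. This is 73.0% (exact 95% binomial interval 55.9 to 86.2%), 50% (29.9 to 70.1%) and 42.9% (21.8 to 66.0%). In all other clusters the shares were 3.54, 0.549 and 0.592%, with upper bounds of 4.53, 1.40 and 1.72%. These intervals count cells, not libraries or animals. The study named *Mfap4*, *Cilp* and *Tnc*, which are among the leading genes here, together with the gate genes for a cluster of these same libraries. Their meeting in this cluster was therefore known beforehand and is given as a description. Median depth was 1859 UMIs in this cluster, under that of most other clusters.

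Of these 84 cells, 22 fell in the adventitial gate, and 18 of the 22 had a gate UMI, which is 18 of the 33 gate-positive fibroblasts that the adventitial limit kept out of the set. Over these 22 cells *Dpp4*, a membrane peptidase, had 2 UMIs and *Ackr3*, an atypical chemokine receptor, had 0. *Pi16*, which encodes a secreted peptidase inhibitor, had 113 UMIs, and its presence in all 22 follows from the gate, which asks for 2 UMIs over the 3 genes. In the 261 adventitial-gate cells of other clusters, *Dpp4* was present in 49.0% and *Ackr3* in 66.7% of cells, with 413 *Ackr3* UMIs. *Pi16* stood at 1843 CPM in the former and 1758 CPM in the latter cells. In the whole cluster *Ackr3* had 0 UMIs among 189127, a count that allows up to 15.9 CPM.

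The remaining 53 members were spread over 11 other clusters. Of these, 15 were in a cluster led by *Cxcl13*, *Sfrp4* and *Gdf10*, 8 in a cluster led by *Irf1*, *Egr1* and *Zfp36*, and 6 in a cluster led by *Timp1*, *Cxcl9* and *Saa3*. A cluster led by *Igkc*, *Cd74* and *Ccl4* and a cluster led by *Rgs5*, *Tagln* and *Acta2* held 3 each. None lay in the cluster of 201 cells led by *Anxa3* and *Smpd3*, which held 182 of the 283 adventitial-gate fibroblasts. The gate bars those 182 from the set, and only 19 other cells were in that cluster, so this absence was largely fixed by the rule. Among the nearest neighbours of a member in expression, 16.1, 20.8 and 24.3% on average were members themselves, against 2.34, 1.80 and 2.14% for the other fibroblasts. For female members with 1 gate UMI this share was 6.78%, and with 2 or more it was 32.0%.

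**Figure D3:**
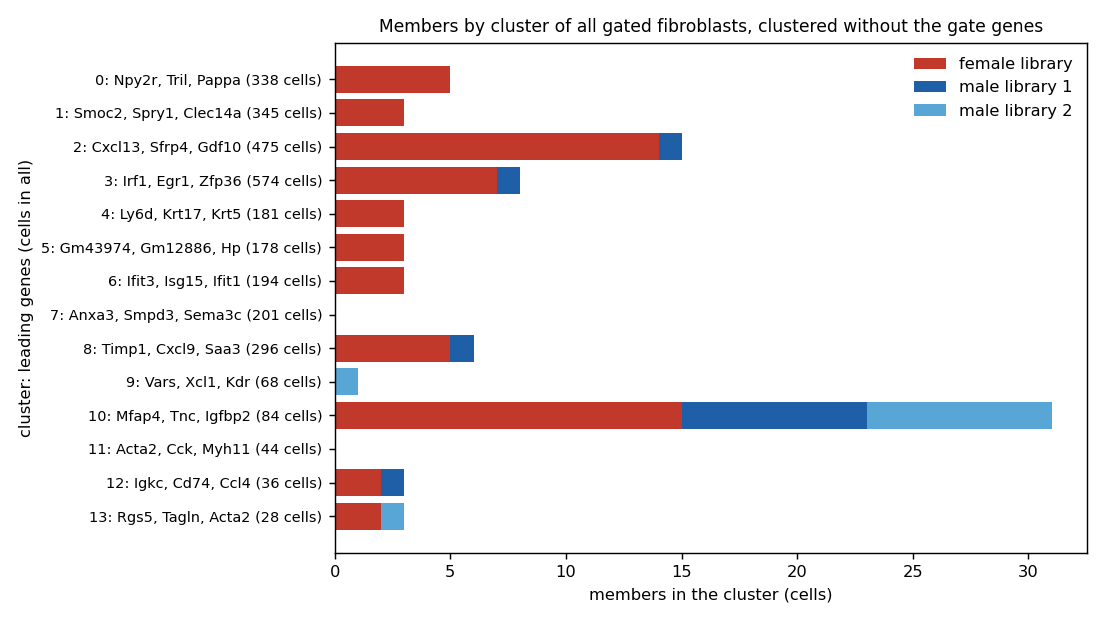
Number of members (horizontal axis, cells) in each of 14 clusters of all gated fibroblasts, made without the genes of the gate and labelled by number and first 3 leading genes; colours mark the library. Cluster 10 holds 31 of the 84 members, 8 of 12 in male library 1 and 8 of 10 in male library 2, but 15 of 62 in the female library.

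Members were next compared with the other non-adventitial fibroblasts, the question being what else distinguishes them from the bulk of LG fibroblasts. Genes higher in members included *Fmod*, *Cpxm2*, *Pla2g7*, *Igfbp2* and *Nbl1*, while *Crabp1*, *Cxcl13* and *Saa3* stood lower. UMIs were summed per library and class and tested with the quasi-likelihood test of edgeR, blocked by library, with p-values adjusted by Benjamini-Hochberg, a call being an adjusted p under 0.05. Of 5589 genes tested, 31 were higher in members (0.555%) and 3 lower (0.0537%). Over all of them the median log2 fold change was -0.28, and -0.06 when scaled by total UMIs, so fold changes are best read against that shift. Agreement of all 3 libraries was a condition for naming a gene and supports nothing by itself. Levels that do not overlap between the classes, given below for named genes, follow in large part from the same choice. The share of all tested genes with such levels is not given here, so the lack of overlap supports nothing either. A gene was tested if 2 of the 6 sums reached 16.2 CPM, and 1592 of the tested genes, with 22 of the 31 called higher, reached this only with the help of the member sums, where a single male UMI is enough. Among the named genes these are *Tnc*, *Cilp*, *Fmod*, *Adra2c*, *Cpxm2*, *Pla2g7* and *Hmcn1*, which could hardly have entered the test without standing higher in members. With no filter on low counts, a refit of the same sums, all 7 were also called. In that fit *Sfrp2*, *Ccn2*, *Lox*, *Cxcl13* and *Crabp1* were not called (edgeR adjusted p = 0.071 to 0.23).

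Among extracellular matrix genes, *Fmod*, the collagen-binding proteoglycan fibromodulin, had 40.4, 56.4 and 189 CPM in members against 5.66, 0.815 and 0 CPM in the other fibroblasts (log2 fold change 3.40 ± 0.68, SE, edgeR adjusted p = 0.00026). *Itgbl1*, a secreted protein with integrin-like repeats, had 188, 226 and 379 CPM against 35.4, 13.0 and 20.7 CPM (2.68 ± 0.59, adjusted p = 0.0019). *Lox*, the enzyme that cross-links collagen and elastin, had 117, 169 and 379 CPM against 30.1, 19.6 and 18.7 CPM (2.26 ± 0.57, adjusted p = 0.016). The levels did not overlap between the classes for any of these genes. *Fmod* was not called without male library 1 or without male library 2, with log2 fold changes of 3.30 and 3.04. *Hmcn1*, a large matrix protein, had 35.9, 56.4 and 63.1 CPM against 6.27, 4.08 and 2.96 CPM (adjusted p = 0.046), from 8, 1 and 1 UMIs in 10 cells. It was not called in 8 of the 11 other ways of processing that tested it. Of 20 tested genes of elastic fibres and microfibrils, 2 rose (*Mfap4* and *Lox*), and of 10 tested genes of tendon and cartilage matrix 3 rose (*Cilp*, *Fmod* and *Tnc*). Over all tested genes 0.555% rose and 0.0537% fell, so the lack of a falling gene in either list says little. The list medians were 0.06 and 0.32. Lists that include *Mfap4*, *Cilp* or *Tnc* are not independent of the choice the study made on these libraries.

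Several called genes encode secreted regulators. *Igfbp2* had 408, 282 and 694 CPM against 38.4, 13.0 and 46.3 CPM (log2 fold change 3.13 ± 0.62, SE, adjusted p = 0.00026), although 38 of its 107 UMIs came from 1 female cell. *Nbl1* had 395, 733 and 1073 CPM against 56.6, 48.9 and 39.4 CPM (3.01 ± 0.59, adjusted p = 0.00016) and was present in 47 of 84 members, with at most 9 UMIs in a cell. These groups of values lay wholly apart, which follows in large part from the naming rule. *Sfrp2*, a secreted modulator of Wnt signals, had 283, 451 and 316 CPM against 56.6, 39.9 and 26.6 CPM (2.35 ± 0.59, adjusted p = 0.019). It was not particular to members. Members carried *Sfrp2* in 22 of 62, 4 of 12 and 4 of 10 cells, and adventitial-gate fibroblasts in 86 of 192, 7 of 37 and 7 of 54. *Ccn2*, a connective tissue growth factor, had 202, 564 and 442 CPM against 63.9, 35.9 and 27.6 CPM (2.32 ± 0.58, adjusted p = 0.015). *Sfrp4*, a relative of *Sfrp2*, also passed the test with 100, 2 and 0 UMIs, but 70 of these UMIs were in 1 female cell. In the lists, 2 of 15 tested Wnt genes (*Sfrp2*, *Sfrp4*) and 1 of 17 TGF-beta and BMP genes (*Nbl1*) rose. So did 1 of 9 IGF genes (*Igfbp2*) and 2 of 17 matricellular genes (*Tnc*, *Ccn2*). Over all tested genes 0.555% rose and 0.0537% fell, so a count of 0 falling in each list says little.

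Enzymes and a receptor completed the named genes. *Cpxm2*, of the carboxypeptidase X family, had 76.3, 113 and 316 CPM against 9.70, 7.34 and 5.91 CPM (log2 fold change 3.22 ± 0.52, SE, adjusted p = 1.0e-06). *Cpz*, a secreted carboxypeptidase with a Wnt-binding domain, had 121, 282 and 442 CPM against 31.1, 18.8 and 9.85 CPM (2.71 ± 0.56, adjusted p = 0.00062). *Pla2g7*, which breaks down platelet-activating factor, had 108, 113 and 253 CPM against 6.67, 35.1 and 8.87 CPM (3.13 ± 0.52, adjusted p = 2.3e-06), and leukocytes carried it too, at 64.4, 65.4 and 20.9 CPM. The adrenergic receptor gene *Adra2c* had 31.4, 56.4 and 126 CPM against 4.04, 1.63 and 1.97 CPM (adjusted p = 0.0035) from only 7, 1 and 2 UMIs. In each case the lowest member library exceeded the highest comparison library. Thinned to 1000 UMIs per cell, *Cpxm2*, *Pla2g7* and *Cpz* were not called (edgeR adjusted p = 0.68 to 0.70), with log2 fold changes of 2.12, 2.03 and 1.52. *Adra2c* was not called without male library 1 or without male library 2, with log2 fold changes of 3.24 and 3.13.

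**Figure D4:**
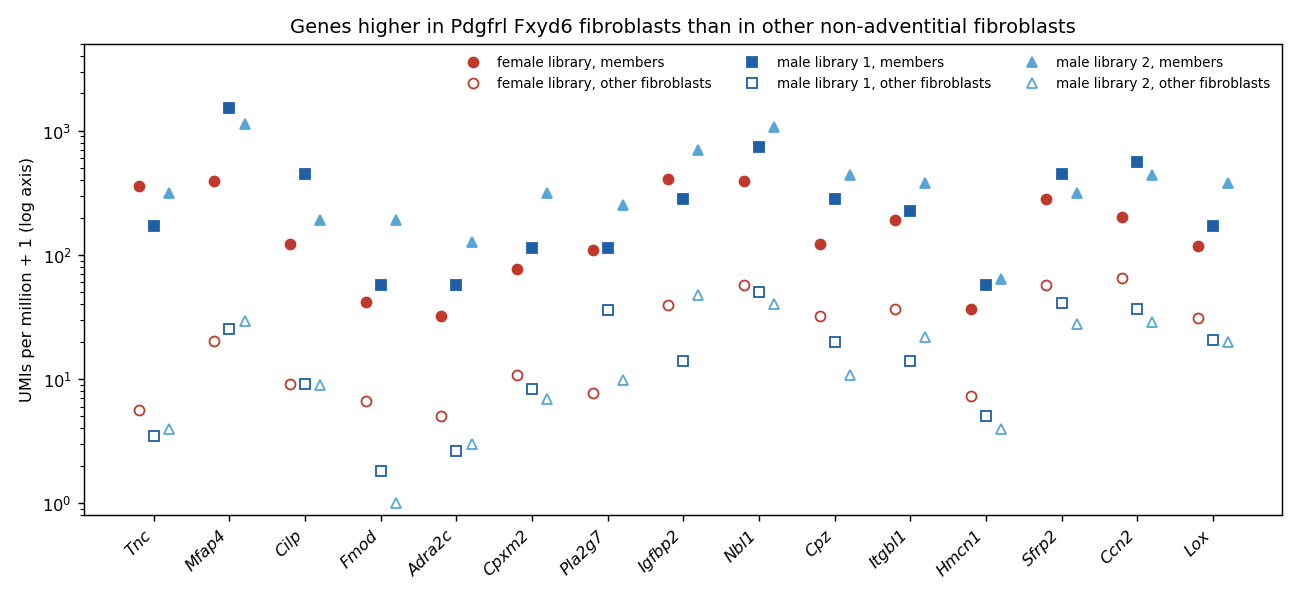
Level of the 15 named genes (CPM plus 1, log axis) in members (filled) and other non-adventitial fibroblasts (open), with a point for each library. In each of the 15 the filled points lie above all open points of the same gene. This follows in large part from the naming rule, which asked for a rise in all 3 libraries. *Mfap4* runs from 395 to 1522 CPM in members and from 19.2 to 28.6 CPM in the others.

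*Crabp1*, *Cxcl13* and *Saa3* fell. *Crabp1* had 534, 338 and 189 CPM in members against 1418, 1096 and 782 CPM (log2 fold change -2.29 ± 0.61, SE, adjusted p = 0.033). *Cxcl13*, the chemokine that draws B cells, had 3, 0 and 0 UMIs in members against 547, 222 and 55 (adjusted p = 0.029). *Saa3*, an acute phase protein, had 0 UMIs in every member library against 300 UMIs in the others, which is at least 3.57-fold lower when 3 counts over all members are taken as the floor (adjusted p = 0.032). Its UMIs in the others lay in only 34 of 2675 cells. *Saa3* was not called in 7 of the 11 other ways of processing that tested it. *Crabp1* was the only called gene of 5 parenchymal markers. *Penk*, *Col15a1* and *Fgf10* had log2 fold changes of -1.04 ± 0.59, -1.25 ± 0.63 and -1.67 ± 0.71 and *Cxcl14* 0.68 ± 0.54, and none of these 4 passed. No called gene was found among 14 immediate early genes, 12 heat shock chaperones, 24 mesenchymal transcription factors, 6 FXYD and sodium pump genes or 23 proteases and inhibitors tested. Only 34 of 5589 tested genes were called (0.608%), and 14% of simulated 4-fold rises, so a count of 0 says little about these lists.

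Leukocyte transcripts were higher in the members of the female library and of male library 1. The summed level of 7 leukocyte markers was 839, 620 and 0 CPM in members and 230, 66.0 and 98.5 CPM in the other fibroblasts. *Cd52* and *Fcer1g* of this list, and outside it *C1qb*, *C1qc*, *Cybb*, *Ctss*, *Rgs1* and *Cxcl9*, were among the 31 genes called higher. *C1qb* had 38, 0 and 0 UMIs, all in 2 cells, and *Cd74* 95, 10 and 0, in 6 cells. With barcodes carrying such transcripts left out (54, 10 and 10 members), 15 genes were higher and 1 lower, all 15 being among the 31, and *Ccn2*, *Lox*, *Hmcn1*, *Saa3* and *Crabp1* no longer passed (adjusted p = 0.061 to 0.11), with log2 fold changes of 2.08, 1.91 and 2.79 for the first 3 and -2.23 for *Crabp1*, close to those with all barcodes. Since 58 members rest on a single gate UMI, the test was also run on the 26 with 2 or more, of which the males hold 3. It called 23 genes higher, 8 of them among the 31. Of 13 named genes that could be tested, 9 did not pass (adjusted p = 0.16 to 0.88), namely *Mfap4*, *Igfbp2*, *Nbl1*, *Itgbl1*, *Sfrp2* and *Ccn2*, the last 5 with log2 fold changes of 2.35, 2.44, 3.10, 1.69 and 1.58, and the lower genes *Saa3*, *Cxcl13* and *Crabp1*.

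Of 12 mural markers 6 were tested and 0 called, where 0.608% of all tested genes were called. Their summed levels were 570, 113 and 379 CPM in members and 471, 229 and 250 CPM in the others. Perineurial markers, known from the sheath of nerves, summed to 31.4, 338 and 63.1 CPM against 57.4, 30.2 and 36.5 CPM, from 7, 6 and 1 UMIs. Their part in the results was not tested.

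Members were then compared with adventitial-gate fibroblasts (192, 37 and 54 cells with 2 or more UMIs of *Pi16*, *Dpp4* and *Ackr3*), which include the 33 gate-positive ones. Members had more of the parenchymal genes and of several matrix genes, and less of the adventitial program. The same members enter this comparison and the one above, so the 2 are not independent. Of 1377 genes tested, 67 were higher in members (4.87%) and 80 lower (5.81%). Scaled by total UMIs, the split was 59 and 45.

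*Cxcl14*, a chemokine of parenchymal fibroblasts, had 1979, 3947 and 3283 CPM in members against 220, 567 and 111 CPM in adventitial-gate cells (log2 fold change 3.16 ± 0.30, SE, edgeR adjusted p = 1.5e-22). *Penk*, the enkephalin precursor, had 157, 677 and 316 CPM against 58.2, 77.3 and 49.5 CPM (1.84 ± 0.45, adjusted p = 0.00088). In all, 4 of 5 parenchymal markers were higher (*Cxcl14*, *Crabp1*, *Penk* and *Col15a1*), and *Fgf10* was not called (-0.06 ± 0.69). *Crabp1* thus stood below the other fibroblasts and above the adventitial-gate cells, whose levels were 99.0, 129 and 61.9 CPM. The other non-adventitial fibroblasts had 1418, 1095 and 750 CPM of *Cxcl14* and 231, 799 and 343 CPM of *Penk*. Levels above those of adventitial-gate cells were therefore not particular to members.

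Among matrix genes, *Mgp*, the calcification inhibitor matrix Gla protein, had 1871, 2199 and 694 CPM in members against 591, 284 and 0 CPM in adventitial-gate cells (log2 fold change 2.37 ± 0.31, SE, edgeR adjusted p = 9.5e-12). *Bgn*, the proteoglycan biglycan, had 1512, 2143 and 2399 CPM against 517, 400.0 and 86.6 CPM (2.28 ± 0.29, adjusted p = 9.1e-13). Both were present in most members, *Bgn* in 81 and *Mgp* in 59 of 84. *Bgn* was not among the genes called against the other non-adventitial fibroblasts. *Igfbp2* (2.98 ± 0.45, adjusted p = 3.1e-09), *Ccn2* (2.20 ± 0.45, adjusted p = 3.4e-05), *Mdk*, a heparin-binding growth factor (2.18 ± 0.63, adjusted p = 0.0082), and *Dkk3* of the Dickkopf family (2.62 ± 0.91, adjusted p = 0.038) were also higher in members. Of the 67 genes called higher, 35 entered the test only with the help of the member sums, *Igfbp2*, *Ccn2*, *Mdk* and *Dkk3* among them, and with no filter only *Igfbp2* of these 4 was called. *Mfap4*, *Cilp* and *Tnc* were less far apart here, with 152, 296 and 61.9 CPM, 56.9, 77.3 and 18.6 CPM, and 48.3, 25.8 and 0 CPM in the adventitial-gate cells.

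The adventitial program stood lower in members throughout. All 4 tested adventitial markers fell: *Fn1*, fibronectin, with 103, 282 and 126 CPM against 1867, 941 and 780 CPM (log2 fold change -3.62 ± 0.38, SE, edgeR adjusted p = 3.9e-18), *Ly6c1* (-3.55 ± 0.48), *Cd34* (-2.85 ± 0.42) and the complement component *C3* (-2.78 ± 0.34). Of 12 further adventitial-type genes 9 were tested and all 9 fell, from *Mfap5* (-1.64 ± 0.31), a microfibril protein, to the annexin gene *Anxa3*, which had 1 UMI in members against 615. Among genes outside the lists, *Smpd3* (a sphingomyelinase), *Tmem100* (a membrane protein), *Efhd1* (a calcium-binding protein) and *Tek* (the angiopoietin receptor) had 0 UMIs in all member libraries and were at least 31.3-, 18.0-, 12.5- and 8.74-fold lower. *Pcsk6* and *Adgrd1* had 1 UMI each and *Pla1a* 4 UMIs in members, against 320, 143 and 356. The gate caps adventitial UMIs in members and requires them in the comparison cells, so a difference along this axis was fixed in part by the choice of cells. Low levels were not particular to members. The 4 markers summed to 830, 338 and 126 CPM in members, 728, 1034 and 802 CPM in the other non-adventitial fibroblasts, and 5385, 3184 and 2258 CPM in adventitial-gate cells.

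Elastic fibre genes divided in this comparison. *Mfap4*, *Fbln1* (log2 fold change 1.62 ± 0.43, SE) and *Lox* (1.47 ± 0.52) were higher in members, whereas *Fbn1* (-2.36 ± 0.36), *Mfap5*, *Efemp1* (-2.10 ± 0.40) and *Emilin2* (-3.32 ± 0.59) were lower, of 16 tested. Of 13 matricellular genes tested 5 were higher (*Tnc*, *Sparcl1*, *Ccn2*, *Smoc2*, *Igfbp7*) and 2 lower (*Postn*, *Fn1*). The immediate early genes *Fos*, *Fosb*, *Jun*, *Junb*, *Egr1*, *Ier3* and *Zfp36*, which respond within minutes to stimuli including tissue digestion, were higher in members, 7 of 14 tested. Over all genes tested 4.87% were higher. *Fos* had 1965, 2424 and 2462 CPM against 1036, 670 and 371 CPM (1.37 ± 0.28, edgeR adjusted p = 3.1e-05). The 14 genes summed to 10364, 9923 and 10859 CPM in members and 5998, 3480 and 2203 CPM in adventitial-gate cells. The other non-adventitial fibroblasts had 15191, 8993 and 6704 CPM, so high levels were not particular to members.

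**Figure D5:**
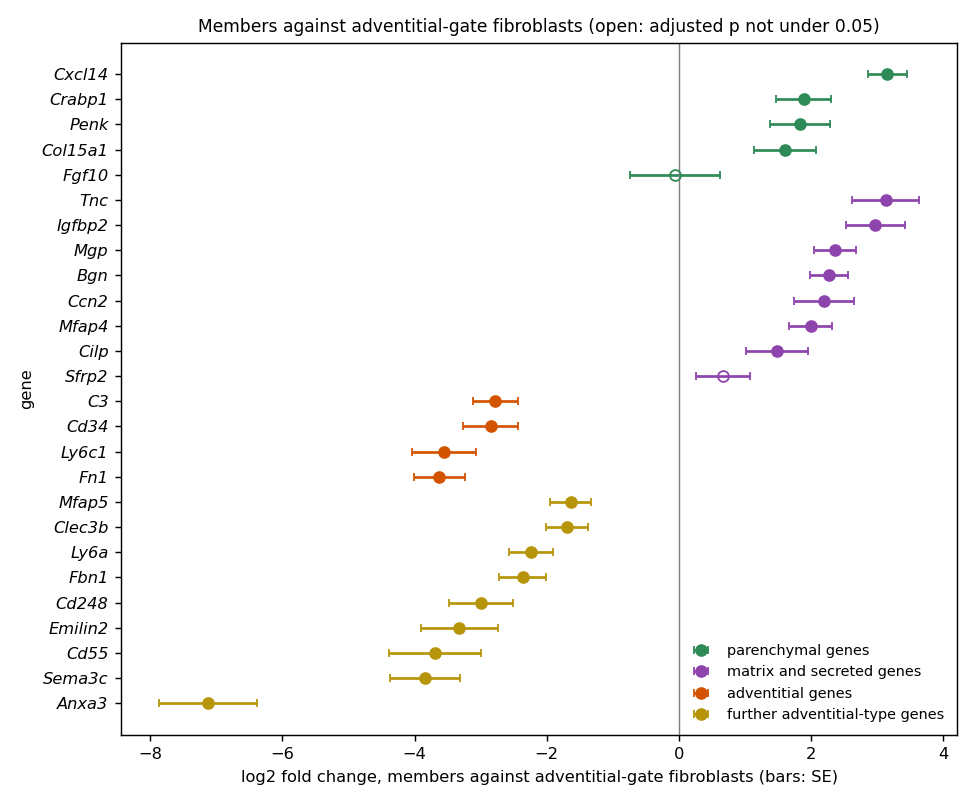
Log2 fold change of members against adventitial-gate fibroblasts (horizontal axis, bars SE, 3 libraries) for parenchymal genes, matrix and secreted genes chosen for display, and 2 lists of adventitial genes; open circles did not pass an adjusted p of 0.05. *Cxcl14* lies far to the right (3.16), and all 13 adventitial genes lie left of 0, down to *Anxa3* (-7.12).

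Without the female library, 366 genes could be tested against adventitial-gate cells and edgeR called 0 higher and 0 lower at the adjusted threshold, with 45 and 46 at an unadjusted p under 0.05. That fit has 1 residual degree of freedom, so lost calls there say little. With 10 CPM added to both levels, the log2 ratio in the 3 libraries was 3.11, 2.78 and 4.76 for *Cxcl14*, 1.53, 2.39 and 4.64 for *Bgn*, and -5.54, -4.94 and -5.10 for *Anxa3*. Naming these genes required the same direction in all 3 libraries, so their agreement supports nothing. Among called genes chosen without that condition, the libraries did not always agree. *Nid1* had -1.44, 1.21 and -2.56, and *Postn* had -4.38, -1.19 and 3.07. *Cd74*, *Tgfbr2* and *Fstl1* also had male library 2 on the other side of 0, with -1.16, 0.095 and 0.046. Against other fibroblasts, 21 genes were higher and 112 lower without the female library, 11 of the 21 being among the 31 above. Without male library 1 none of the 3 lower genes was called, though the log2 fold changes of *Crabp1* and *Cxcl13* stayed at -2.10 and -3.13, and without male library 2 only *Cxcl13* of the 3 was called.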

How the data were processed

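Single cells of LGs were profiled in 1 female and 2 male libraries. The matrices deposited by the authors hold whole-number UMI counts from Cell Ranger 6.1.2 and mm10, per the labels (the header of the full matrices names Cell Ranger 4), before their correction for ambient RNA and doublet removal. The called barcodes (9737, 6422 and 6899) were used, and their counts were checked against the full matrices (0 differing entries). Between libraries, 12 to 18 called barcode sequences were shared, and none among members. Members, gene lists and tests were chosen with earlier results of these data known.

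UMIs were summed per library and class: 222892, 17736 and 15839 UMIs in members. Sums were tested with edgeR 4.0.16 (filterByExpr, TMM, glmQLFTest; R 4.3.3) on library and class. Library is a block because both classes come from the same suspension. The 14 genes of the gate were not tested. SEs were taken as the log2 fold change over the square root of F. Named genes were the 15 higher and up to 10 lower against other fibroblasts, and 8 each way against adventitial-gate cells, by fold change among called genes with the same direction in 3 of 3 libraries and at least 20 UMIs, without gate, tear-product, mitochondrial, ribosomal and unnamed genes. Gene lists add up to 4 called members each way. *Sfrp4*, *C1qb* and other genes named outside this rule were picked after their values were seen. Tear-product genes left out of clustering were in part chosen after seeing the data.

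Simulated counts tested the script: against other fibroblasts 14% of genes raised 4-fold and 84% of genes raised 16-fold were called, and 6% and 26% of genes lowered by these folds. Against adventitial-gate cells the shares were 84, 100, 54 and 52%. Clusters were made with scanpy 1.11.5 (2000 variable genes centred per library, 20 components, 15 neighbours, Leiden resolution 1). Doublets were kept, and an alternative left out the highest scrublet scores at 0.8% per 1000 called barcodes (8, 1 and 0 members). Coordinates are from GENCODE M21 by gene ID. Intervals are exact binomial. A list of glial markers is not reported here.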

Additional observations from a re-analysis of the deposited data

How the results depend on the processing

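The 31 higher and 3 lower genes against other fibroblasts became 20 and 1 with DESeq2, 53 and 11 with no filter on low counts, 19 and 1 with 0 adventitial UMIs allowed, 10 and 5 with cells thinned to 1000 UMIs, and 15 and 1 without barcodes carrying leukocyte transcripts, a setting chosen after seeing the data. Scaling by total UMIs gave 5 lower genes. Leaving out 1 library gave 12 to 24 higher and 0 to 112 lower genes, 12 without male library 1, 24 without male library 2 and 21 higher with 112 lower without the female library. With no lower gene called by edgeR without male library 1, 43 were lower at an unadjusted p under 0.05. Against adventitial-gate fibroblasts, the 67 higher and 80 lower genes became 29 and 32 with DESeq2, 21 and 49 with no filter, and 31 and 35 with at least 2 gate UMIs. Lower genes numbered 45 with total UMIs, 37 with thinned cells and 53 with tear-product genes left out. Leaving out 1 library gave 0 to 49 higher and 0 to 48 lower genes. The mean share of members, 2.34%, was 0.587% with at least 2 gate UMIs and 1.74 to 2.71% with 1 library left out. The causes of these shifts were not tested.

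Without the replicate block on library, 14 genes were lower against other fibroblasts, and 13 higher and 20 lower against adventitial-gate cells. The block pairs both classes of a library; between the sexes, which share 1 replicate number, no comparison was made. Of the fold changes of named genes under the alternatives, 186 of 237 against other fibroblasts and 164 of 185 against adventitial-gate cells stayed past the threshold, and 0 turned in direction. Naming asked for a call and the same direction in every library, and the alternatives refit the same cells or part of them. A turn was therefore hardly possible. Genes that an alternative did not test are left out of these counts. Members of the male libraries, 22 cells in all, limit what these libraries could show: 1 UMI there is worth 56.4 or 63.1 CPM.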
